A study of Mus musculus with 10 samples.

Results

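The sebocyte lipid genes described here are Scd1, Elovl3, Elovl4, Soat1, Awat2, Dgat2, Far2, Cidea, Mgst1 and Krt79. They were taken by name, as transcripts of the oil-producing cells of the skin that could be a trace of contact with the sebaceous gland, and are 10 of the 47643 genes listed in each library. All 10 passed the filter on low counts that left 16208 genes for testing.

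Sebocytes are the cells of the sebaceous gland, which opens into the hair follicle in the dermis. They fill with lipid droplets, burst and release their content as sebum, a mixture of wax esters, triglycerides and sterol esters that coats hair and skin. Fatty acids are desaturated and elongated, reduced in part to fatty alcohols, and then joined to alcohols, glycerol or cholesterol by acyltransferases.

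The libraries hold RNA of innate lymphoid cells (ILCs), tissue lymphocytes without T cell or B cell receptors, taken by cell sorting from skin of B6 adult mice. The groups are epidermal ILCs (3 libraries), dermal ILCs sorted as CCR6+ (2), dermal ILCs sorted as Sca1+ (2) and subcutaneous ILCs (3). Of the sort markers, CCR6 is a receptor for the chemokine CCL20, and Ly6a encodes Sca1. The labels name no allele and no treatment in any group, and they give neither the gates of the sort, nor the number of animals, nor whether replicates were separate animals. The p-values therefore measure only how these libraries vary, and that variation may be technical. For the second library of either dermal sort the marker is given by the title alone.

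Expected counts summed to between 11627222 and 18118544 per library, and 14983 to 19376 genes had a count. The leukocyte gene Ptprc averaged 297 ± 139, 232 ± 6.12, 307 ± 2.09 and 347 ± 53.6 TPM in epidermal, dermal CCR6+, dermal Sca1+ and subcutaneous libraries (SD, n = 3, 2, 2 and 3) and was thus present in every group. The genes of the sort markers followed the labels. Ccr6 averaged 1233, 843, 72.8 and 7.32 TPM, and Ly6a 460, 325, 2985 and 3055 TPM, in the same order of groups. Transcripts of other skin cells were present too: 12 keratinocyte markers summed to 5360 to 19484 TPM in epidermal, 1986 to 2276 in dermal CCR6+, 2095 to 2175 in dermal Sca1+ and 87.9 to 209 TPM in subcutaneous libraries. These are bulk libraries, in which fewer cells of a type and less RNA per cell cannot be told apart.

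Levels within a gene are given as CPM, counts scaled by normalized (TMM) library sizes, and levels compared between genes as TPM, which corrects for gene length. The set showed 3 patterns. Scd1, Elovl3, Far2, Cidea and Mgst1 had their highest level in dermal Sca1+ ILCs and their next highest in dermal CCR6+ ILCs, with the libraries of each of these groups all above those of the next. Elovl4 and Krt79 had similar levels in epidermal and dermal ILCs and were nearly absent from subcutaneous ILCs. Soat1 was highest in subcutaneous ILCs, and Dgat2 was at a like level in all groups. Awat2 was low in every group.

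**Figure D1:**
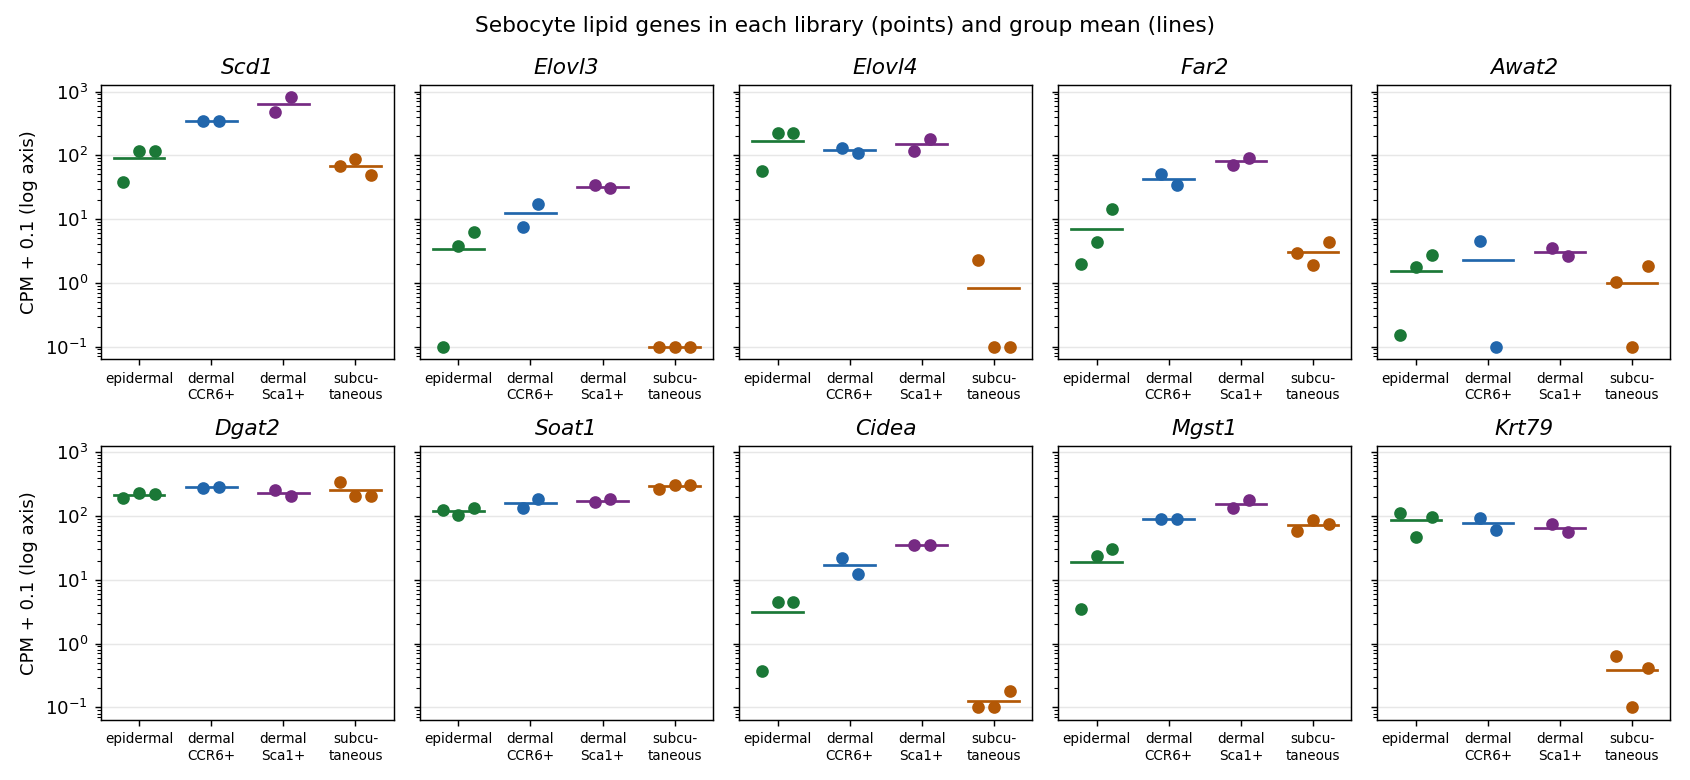
Level of each of the 10 genes in each library, as CPM + 0.1 on a log axis, with points for libraries and lines for group means. Elovl3 lies at 0 CPM in all 3 subcutaneous libraries and at 31 and 33.5 CPM in the dermal Sca1+ libraries, while Soat1 lies at 267 to 309 CPM in subcutaneous libraries, above every other library.

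The first steps of sebum lipid synthesis are covered by 3 genes. Scd1 (ENSMUSG00000037071.2, mm10 chr19:44394455-44407879) encodes stearoyl-CoA desaturase, which places a double bond in saturated fatty acids. It was at 38.5, 115 and 117 CPM in epidermal, 341 and 346 in dermal CCR6+, 477 and 809 in dermal Sca1+, and 66.9, 86 and 48.3 CPM in subcutaneous libraries. Every dermal library lay above every epidermal and subcutaneous library, and the dermal Sca1+ libraries lay above the dermal CCR6+ ones. Scd1 was lower in epidermal than in dermal Sca1+ ILCs (log2 fold change -2.83 ± 0.442 (SE), edgeR adjusted p = 0.00216) and than in dermal CCR6+ ILCs (-1.93 ± 0.434, edgeR adjusted p = 0.025). The test was edgeR's quasi-likelihood test, with p-values adjusted by Benjamini-Hochberg over the 16208 genes, and an adjusted p under 0.05 was taken as a call. Scd1 was higher in dermal Sca1+ (3.26 ± 0.448, edgeR adjusted p = 0.0043) and dermal CCR6+ ILCs (2.36 ± 0.437, edgeR adjusted p = 0.00961) than in subcutaneous ILCs. The difference between epidermal and subcutaneous ILCs missed the threshold (0.43 ± 0.393, edgeR adjusted p = 0.511), as did that between the dermal groups (-0.91 ± 0.482, edgeR adjusted p = 0.52). The call against dermal CCR6+ ILCs was lost without dermal CCR6+ replicate 1 or 2 (edgeR adjusted p = 0.0847 and 0.0831), and the dermal CCR6+ call against subcutaneous ILCs without dermal CCR6+ replicate 2 (0.0512). Scd1 has close copies in the genome, Scd2, Scd3 and Scd4, between which reads may be split with error.

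Elovl3 (ENSMUSG00000038754.4, chr19:46131897-46135694) elongates saturated and monounsaturated very long chain fatty acids and is a known gene of mouse sebum and brown fat. It was at 0, 3.62 and 6.09 CPM in epidermal, 7.32 and 17.4 in dermal CCR6+, 33.5 and 31 in dermal Sca1+ libraries, and at 0 in all 3 subcutaneous libraries. Its counts summed to 175, 377, 888 and 0 in the same groups. Elovl3 was the only one of the 10 genes without a count in any subcutaneous library, and epidermal replicate 1 lacked it too. A count of 0 allows up to 3 counts, which corresponded to 0.149 to 0.258 CPM in single libraries. Against a floor of 3 counts over the subcutaneous group, Elovl3 was at least 46.2-fold higher in epidermal, at least 171-fold higher in dermal CCR6+ and at least 453-fold higher in dermal Sca1+ ILCs (edgeR adjusted p = 0.0268, 0.026 and 0.036). All 3 calls were lost when any one of the subcutaneous libraries was left out (edgeR adjusted p = 0.0629 to 0.1). The epidermal call was lost as well without epidermal replicate 2 or 3 (0.0561 and 0.0652). The dermal CCR6+ call was lost without dermal CCR6+ replicate 2 (0.0907), and the dermal Sca1+ call without dermal Sca1+ replicate 1 or 2 or epidermal replicate 2 (0.0999, 0.0755 and 0.0571). Elovl3 shares 10 exon bases with Pitx3 on the other strand, which this preparation does not mark.

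Elovl4 (ENSMUSG00000032262.13, chr9:83778692-83806277) makes the ultra long chain fatty acids of skin and retina. It was at 56.1, 225 and 224 CPM in epidermal, 130 and 108 in dermal CCR6+, 118 and 179 in dermal Sca1+, and 2.21, 0 and 0 CPM in subcutaneous libraries. Epidermal and dermal libraries overlapped, while every one of them lay above the subcutaneous libraries. All 33 subcutaneous counts came from replicate 1. Elovl4 was higher than in subcutaneous ILCs in epidermal (log2 fold change 7.76 ± 1.08, edgeR adjusted p = 0.000666), dermal CCR6+ (7.26 ± 1.09, edgeR adjusted p = 0.00319) and dermal Sca1+ ILCs (7.58 ± 1.1, edgeR adjusted p = 0.00586). Without subcutaneous replicate 1 no count was left in that group, and the bounds became at least 1491-fold, 1071-fold and 1295-fold higher in epidermal, dermal CCR6+ and dermal Sca1+ ILCs. That library was left out because it held the counts, so these bounds apply to the remaining subcutaneous libraries and not to the whole group. Between the epidermal and dermal groups no difference passed the test, and for epidermal over dermal Sca1+ ILCs the fitted value was 0.18 ± 0.854 (edgeR adjusted p = 0.949).

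Promoter stretches are shown for Elovl4 and Krt79, both nearly absent from subcutaneous ILCs, and for Soat1, which was highest there. Within groups Elovl4 and Krt79 did not move together: they ran in opposite orders over epidermal and over dermal Sca1+ libraries, and in the same order over dermal CCR6+ libraries. Each is the 250 bases before the RefSeq start on the minus strand (GRCm38.p6), at chr9:83806306-83806555 for Elovl4, chr15:101940325-101940574 for Krt79 and chr1:156474329-156474578 for Soat1. Sequences run 5′ to 3′, and capitals mark motif matches on either strand.
Elovl4: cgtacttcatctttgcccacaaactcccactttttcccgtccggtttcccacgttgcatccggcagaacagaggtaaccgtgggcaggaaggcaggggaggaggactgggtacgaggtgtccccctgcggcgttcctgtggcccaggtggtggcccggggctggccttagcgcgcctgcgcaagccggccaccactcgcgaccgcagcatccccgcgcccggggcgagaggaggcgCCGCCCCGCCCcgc
Krt79: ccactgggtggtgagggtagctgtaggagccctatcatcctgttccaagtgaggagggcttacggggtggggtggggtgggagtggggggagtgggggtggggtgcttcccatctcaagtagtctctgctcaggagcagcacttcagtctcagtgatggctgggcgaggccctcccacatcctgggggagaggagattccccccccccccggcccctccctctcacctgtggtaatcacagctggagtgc
Soat1: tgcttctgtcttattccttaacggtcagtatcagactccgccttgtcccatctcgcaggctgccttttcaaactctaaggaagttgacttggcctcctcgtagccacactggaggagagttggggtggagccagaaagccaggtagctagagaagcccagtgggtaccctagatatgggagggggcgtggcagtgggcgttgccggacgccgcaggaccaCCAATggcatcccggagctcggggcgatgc
The Elovl4 stretch had 69.6% G or C and 25 CpG dinucleotides, against 64% and 3 for Krt79 and 58.8% and 12 for Soat1, while the median over 32851 RefSeq windows of this length was 52.4% G or C. The motifs searched were the TATA box (TATAAA), the CCAAT box (CCAAT), the GC box (GGGCGG), a sterol response element (TCACNCCAC) and an E-box (CACGTG). Elovl4 held the GC box on the other strand in 2 overlapping copies, 14 and 9 bases before the start, a motif that 32.7% of all windows hold. Soat1 held the CCAAT box 30 bases before the start, which 33.8% of windows hold. Krt79 held none of the 5. The TATA box was found in 12.4%, the sterol response element in 1.05% and the E-box in 6.02% of all windows. Elovl4 and Krt79 shared none of these motifs within 250 bases. Windows were found in the RefSeq table for 6 of the 10 genes.

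Of the genes of ester formation, Far2 (ENSMUSG00000030303.15, chr6:148047259-148182758) encodes a reductase that turns fatty acyl-CoA into the fatty alcohol of wax esters. It was at 1.9, 4.32 and 14.2 CPM in epidermal, 50.7 and 34.5 in dermal CCR6+, 71.2 and 90.1 in dermal Sca1+, and 2.81, 1.81 and 4.2 CPM in subcutaneous libraries. Both dermal groups stood clear of the other 2, which overlapped. Far2 was lower in epidermal than in dermal Sca1+ (log2 fold change -3.56 ± 0.692, edgeR adjusted p = 0.00782) and dermal CCR6+ ILCs (-2.64 ± 0.675, edgeR adjusted p = 0.046). It was higher in dermal Sca1+ (4.78 ± 0.732, edgeR adjusted p = 0.00802) and dermal CCR6+ ILCs (3.86 ± 0.71, edgeR adjusted p = 0.0092) than in subcutaneous ILCs. The epidermal call against dermal CCR6+ ILCs was lost without any single library other than epidermal replicate 3 (edgeR adjusted p = 0.0575 to 0.173). Far2 shares 837 exon bases with Ergic2 and 81 with Far2os2, both on the other strand, so its reads cannot be separated with certainty from theirs.

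Awat2 (ENSMUSG00000031220.14, chrX:100402221-100442717), the acyltransferase that joins fatty alcohols to fatty acids as wax esters, was at 0.0542, 1.67 and 2.63 CPM in epidermal, 4.43 and 0 in dermal CCR6+, 3.37 and 2.49 in dermal Sca1+, and 0.937, 0 and 1.74 CPM in subcutaneous libraries. It was the lowest of the 10 genes by mean TPM in the epidermal and both dermal groups, at 1.26 ± 1.14, 1.85 ± 2.62 and 2.55 ± 0.41 TPM (SD, n = 3, 2 and 2). Its counts were 1, 24 and 53 in the epidermal, 69 and 0 in the dermal CCR6+, 53 and 29 in the dermal Sca1+, and 14, 0 and 22 in the subcutaneous libraries. The groups overlapped in 5 of the 6 comparisons, and Awat2 was called in none. At this depth the difference between dermal Sca1+ and subcutaneous ILCs, whose libraries did not overlap, was 1.71 on the log2 scale with a 95% interval of -2.2 to 5.62 (edgeR adjusted p = 0.783).

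Dgat2 (ENSMUSG00000030747.5, chr7:99153658-99182719) makes triglyceride from diglyceride in many tissues. It was at 192, 226 and 219 CPM in epidermal, 279 and 288 in dermal CCR6+, 254 and 205 in dermal Sca1+, and 346, 209 and 208 CPM in subcutaneous libraries. All 10 values lay between 192 and 346 CPM, and Dgat2 was called in none of the comparisons. For epidermal over subcutaneous ILCs the fitted log2 fold change was -0.26 with a 95% interval of -0.69 to 0.17 (edgeR adjusted p = 0.471). For dermal CCR6+ over dermal Sca1+ ILCs it was 0.3 with an interval of -0.23 to 0.84 (edgeR adjusted p = 0.765).

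Soat1 (ENSMUSG00000026600.12, chr1:156424525-156474331) esterifies cholesterol for storage in droplets, in macrophages and adrenal cells as well as in sebocytes. It was at 125, 103 and 134 CPM in epidermal, 133 and 182 in dermal CCR6+, 164 and 186 in dermal Sca1+, and 267, 309 and 307 CPM in subcutaneous libraries. Its subcutaneous libraries lay above all others, the only such case among the 10 genes. Soat1 was lower in epidermal (log2 fold change -1.29 ± 0.188, edgeR adjusted p = 0.000893) and dermal CCR6+ (-0.9 ± 0.213, edgeR adjusted p = 0.0285) than in subcutaneous ILCs. The difference of dermal Sca1+ from subcutaneous ILCs missed the threshold (-0.75 ± 0.212, edgeR adjusted p = 0.117). The dermal CCR6+ call was lost without dermal CCR6+ replicate 1 or 2 (edgeR adjusted p = 0.186 and 0.072) and without subcutaneous replicate 2 or 3 (0.0773 and 0.0762). Sums of 8 macrophage markers ran in the same order of groups as mean Soat1. They were 1.6 to 4.01 CPM in epidermal, 177 to 232 in dermal CCR6+, 332 to 661 in dermal Sca1+ and 3932 to 7288 CPM in subcutaneous libraries. Over the libraries within a group, the 2 orders matched in epidermal and dermal Sca1+ ILCs and differed in dermal CCR6+ and subcutaneous ILCs. The part of macrophage RNA in the result was not tested.

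Cidea (ENSMUSG00000024526.8, chromosome 18, 67343604 to 67367785, mm10) encodes a protein of lipid droplet fusion found in sebocytes and in brown fat. It was at 0.271, 4.32 and 4.36 CPM in epidermal, 21.7 and 12.3 in dermal CCR6+, 35.3 and 35.6 in dermal Sca1+, and 0, 0 and 0.0793 CPM in subcutaneous libraries. No pair of groups overlapped, and the order ran from dermal Sca1+ through dermal CCR6+ and epidermal to subcutaneous libraries. The subcutaneous group held 1 count in all, so that ratios to it have wide counting intervals: 123 (95% interval 21.7 to 4875) for epidermal, 716 (128 to 28345) for dermal CCR6+ and 1486 (266 to 58757) for dermal Sca1+ ILCs. The edgeR adjusted p-values of these were 0.00484, 0.0028 and 0.00359. Cidea was also lower in epidermal than in dermal Sca1+ ILCs (log2 fold change -3.57 ± 0.914, edgeR adjusted p = 0.0304), a call lost without epidermal replicate 2 or 3 (0.0623 and 0.0645) or dermal Sca1+ replicate 1 or 2 (0.0944 and 0.0961). Against dermal CCR6+ ILCs the epidermal value was -2.51 ± 0.89 and missed the threshold (edgeR adjusted p = 0.141).

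Mgst1 (ENSMUSG00000008540.11, chr6:138140316-138156755), a membrane glutathione transferase that protects against oxidized lipids and is not restricted to sebocytes, was at 3.36, 23.4 and 30.2 CPM in epidermal, 90.5 and 89.2 in dermal CCR6+, 136 and 178 in dermal Sca1+, and 58, 86 and 73.7 CPM in subcutaneous libraries. It was the one gene of the dermal pattern whose epidermal libraries lay below the subcutaneous ones. Mgst1 was lower in epidermal than in dermal Sca1+ (log2 fold change -3.05 ± 0.633, edgeR adjusted p = 0.0111) and subcutaneous ILCs (-1.93 ± 0.578, edgeR adjusted p = 0.0391). Against dermal CCR6+ ILCs the epidermal value of -2.24 ± 0.622 missed the threshold (edgeR adjusted p = 0.0638). The first call was lost without dermal Sca1+ replicate 2 (edgeR adjusted p = 0.0566). The call against subcutaneous ILCs was lost without any single library other than epidermal replicates 1 and 3 (0.0505 to 0.0997).

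Krt79 (ENSMUSG00000061397.7, chr15:101929332-101940324) encodes a keratin of the duct that joins gland and follicle, and is no lipid enzyme. It was at 113, 47 and 96.4 CPM in epidermal, 94.1 and 60.9 in dermal CCR6+, 76 and 55.4 in dermal Sca1+, and 0.536, 0 and 0.317 CPM in subcutaneous libraries. The epidermal and dermal groups overlapped, and all of their libraries lay far above the subcutaneous ones. Krt79 was higher than in subcutaneous ILCs in epidermal (log2 fold change 8.19 ± 0.683, edgeR adjusted p = 2.85e-05), dermal CCR6+ (8.04 ± 0.695, edgeR adjusted p = 0.0002) and dermal Sca1+ ILCs (7.81 ± 0.692, edgeR adjusted p = 0.000634). Epidermal replicate 1 had the highest Krt79 of all libraries, and the lowest Scd1, Far2 and Mgst1 of the epidermal libraries.

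Across the comparisons, epidermal ILCs had higher Elovl3, Elovl4, Cidea and Krt79 and lower Soat1 and Mgst1 than subcutaneous ILCs. These are 4 genes higher and 2 lower of 10, against 6.87% and 13.3% of all genes tested (20.2% in either direction). Libraries did not overlap for Elovl4, Cidea and Krt79 above, beside 17.2% of all genes, and for Soat1 and Mgst1 below, beside 22.6%. The median log2 fold change was 0.96 over the 10 genes and -0.02 over all genes. Both dermal groups had higher Scd1, Elovl3, Elovl4, Far2, Cidea and Krt79 than subcutaneous ILCs. For dermal CCR6+ ILCs these 6 stood beside 3.75% of all genes called higher, with Soat1 the 1 lower gene beside 3.71%, and a median of 3.11 against -0.08 (7.46% of all genes were called in either direction). Mgst1 joined these 6 in having both dermal CCR6+ libraries above all subcutaneous ones, beside 19.8% of all genes, and only Soat1 had them below, beside 23.5%. For dermal Sca1+ ILCs the same 6 stood beside 1.21%, no gene was lower beside 0.993% (2.2% in either direction), and the median was 4.02 against -0.03. Awat2 and Mgst1 joined them in having both dermal Sca1+ libraries above the subcutaneous ones, beside 15.6% of all genes, and only Soat1 had them below, beside 18.4%. The comparisons share the subcutaneous libraries and are therefore not independent of each other. The set and the lists below were chosen with earlier results of these data known. Their counts beside the shares of all genes are therefore a description and no test.

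Epidermal ILCs had lower levels than dermal ILCs wherever a call was made. Against dermal Sca1+ ILCs, Scd1, Far2, Cidea and Mgst1 were lower, 4 genes beside 8.66% of all genes called lower, and none was higher beside 2.75% (11.4% in either direction). Elovl3 and Soat1 joined these 4 in having all epidermal libraries below, beside 22.0% of all genes, and none had them above, beside 18.9%. Against dermal CCR6+ ILCs, Scd1 and Far2 were lower, 2 genes beside 5.19%, and none was higher beside 0.987% (6.18% in either direction). Elovl3, Dgat2, Cidea and Mgst1 also had all epidermal libraries below, beside 19.0% of all genes, and none had them above, beside 15.3%. No gene of the 10 was higher at an unadjusted p under 0.05 in either comparison, and by DESeq2 none was higher in either. Both calls of the second comparison were lost when the fit held only these 2 groups (edgeR adjusted p = 0.0623 for Scd1 and 0.108 for Far2). Median log2 fold changes were -1.92 and -1.27 for the 10 genes, against 0 for all genes in both.

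Within the dermis, no gene of the 10 was called between CCR6+ and Sca1+ ILCs, beside 0.642% of all genes called (0.296% higher and 0.346% lower), by edgeR, DESeq2 or limma, and none had an unadjusted p under 0.05. Scd1, Elovl3, Far2, Cidea and Mgst1 nevertheless had both dermal CCR6+ libraries below both dermal Sca1+ libraries, 5 genes beside 20.1% of all genes with that order. Dgat2 had them above, beside 19.3%. The fitted differences of the 5 lay between -1.39 ± 1.45 for Elovl3 and -0.81 ± 0.684 for Mgst1.

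**Figure D2:**
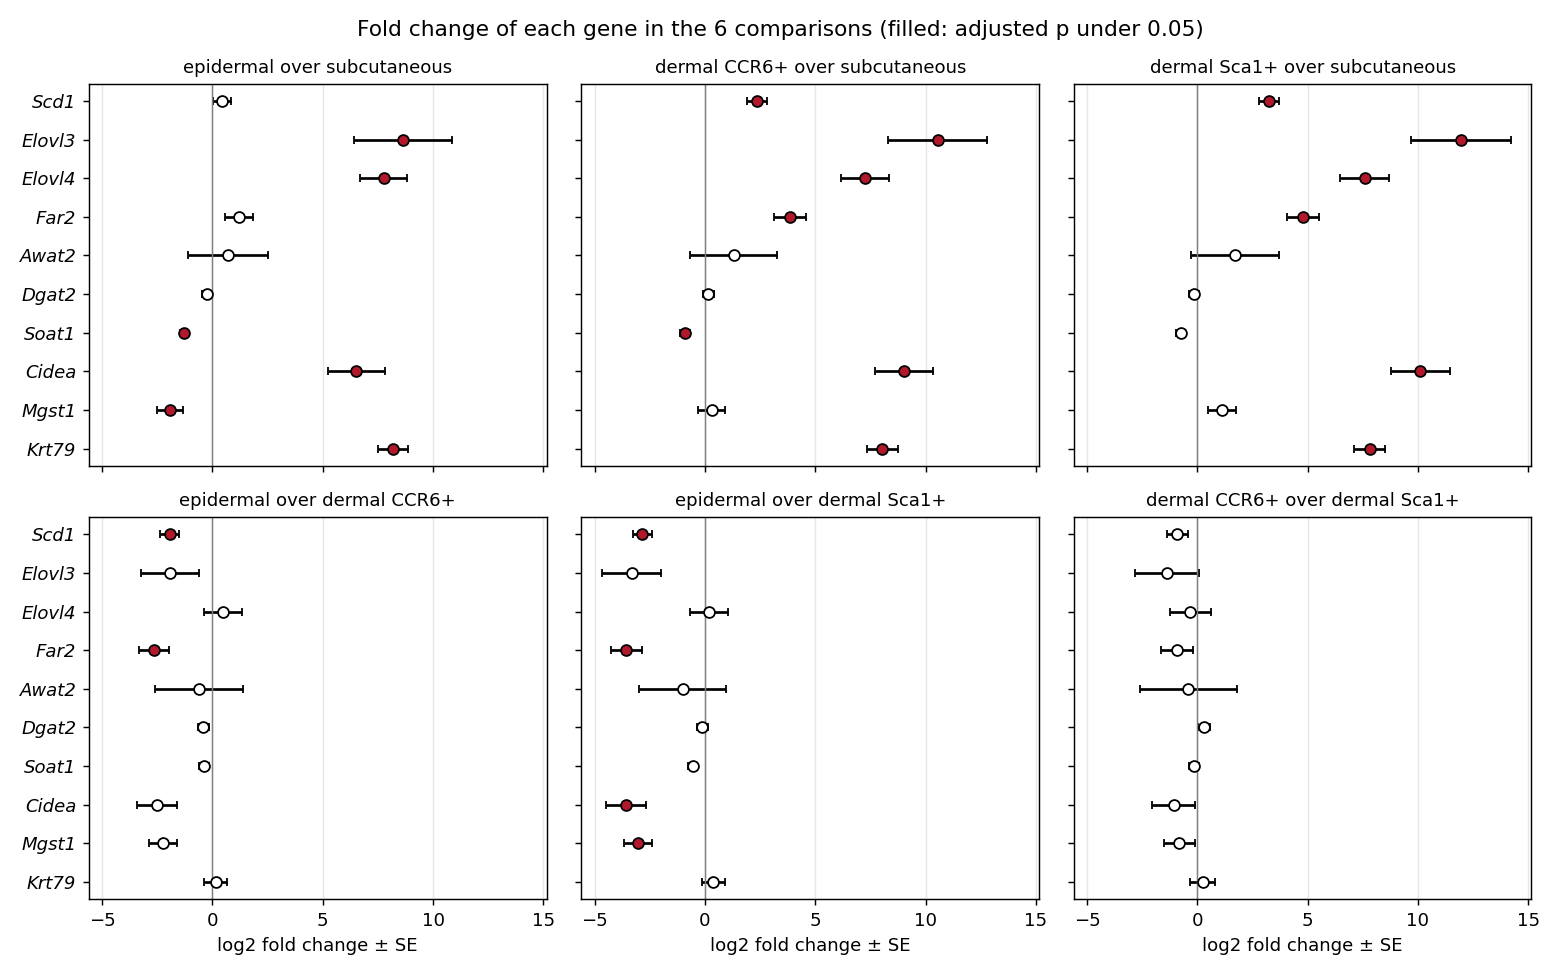
Log2 fold change of each gene in the 6 comparisons with its SE as a bar, filled where the edgeR adjusted p was under 0.05. Krt79 and Elovl4 lie near 8 in the 3 comparisons with subcutaneous ILCs and near 0 in the other 3, while the values of Dgat2 lie between -0.42 and 0.3 in all 6.

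Other genes of the sebocyte were read from a list of 14, of which 13 could be tested. Fa2h, which makes 2-hydroxy fatty acids, Elovl6, which elongates palmitate, and the apolipoprotein gene Apoc1 were higher in both dermal groups than in subcutaneous ILCs. Apoc1 was not highest in the dermis: it averaged 37.6, 15.4, 20.4 and 2.93 CPM in epidermal, dermal CCR6+, dermal Sca1+ and subcutaneous ILCs. It was also higher in epidermal than in subcutaneous ILCs (log2 fold change 3.67 ± 0.571, edgeR adjusted p = 0.00129). Of the 13, dermal CCR6+ ILCs had 4 higher and 4 lower than subcutaneous ILCs, beside 3.75% and 3.71% of all genes. Dermal Sca1+ ILCs had 3 higher and 1 lower, beside 1.21% and 0.993%. For epidermal over subcutaneous ILCs 2 were higher and 4 lower, beside 6.87% and 13.3%. Fa2h averaged 45.2 ± 15.3 CPM in dermal CCR6+ and 57.9 ± 7.74 in dermal Sca1+, against 2.66 ± 1.83 CPM in subcutaneous ILCs (SD, n = 2, 2 and 3; edgeR adjusted p = 0.0249 and 0.0398). Epidermal ILCs had 5 genes of the list lower and none higher than dermal Sca1+ ILCs, beside 8.66% and 2.75% of all genes. Against dermal CCR6+ ILCs 3 were lower and none higher, beside 5.19% and 0.987%. No list gene was called between the dermal groups.

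Awat1, a wax ester synthase like Awat2, had 99, 213, 307 and 0 counts in epidermal, dermal CCR6+, dermal Sca1+ and subcutaneous libraries. Scd3, a desaturase of the sebaceous gland in the mouse, had 59, 299, 729 and 1 counts. Neither was called in any comparison, and the libraries of a group differed widely, as Awat1 averaged 13.8 ± 15.1 TPM in dermal Sca1+ and Scd3 3.42 ± 4.83 TPM in dermal CCR6+ libraries (SD, n = 2 each). Other genes of the list were highest in subcutaneous ILCs: Pparg, a regulator of lipid storage in sebocytes, adipocytes and some ILCs, averaged 2.56, 10.1, 18.2 and 80.4 CPM, and the droplet coat gene Plin2 25.6, 78.1, 145 and 317 CPM. Epidermal ILCs had less of both than subcutaneous ILCs (log2 fold change -4.96 ± 0.386 and -3.63 ± 0.258, edgeR adjusted p = 1.87e-05 and 1.12e-05). Mc5r, a melanocortin receptor needed for sebum secretion in mice, averaged 0.665, 3.97, 70.9 and 38 CPM, and was lower in epidermal than in dermal Sca1+ ILCs (-6.67 ± 0.887, edgeR adjusted p = 0.000841).

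General lipid pathways were read from 3 lists, beside 20.2% of all genes called between epidermal and subcutaneous, 7.46% between dermal CCR6+ and subcutaneous, 2.2% between dermal Sca1+ and subcutaneous, 6.18% between epidermal and dermal CCR6+ and 11.4% between epidermal and dermal Sca1+ ILCs. They are not separate from the list of other sebocyte genes, which shares Elovl5, Elovl6 and Fasn with fatty acid synthesis and Plin2 with droplet handling. Calls of shared genes are counted in both. Of 24 fatty acid synthesis genes, epidermal ILCs had 3 higher and 5 lower than subcutaneous ILCs, and dermal CCR6+ ILCs had 2 higher and 3 lower. In dermal Sca1+ ILCs only Elovl6 was called against subcutaneous ILCs, at 99 ± 16.3 against 12.8 ± 2.74 CPM (SD, n = 2 and 3; log2 fold change 2.95 ± 0.512, edgeR adjusted p = 0.0157). Epidermal ILCs had 1 higher and 2 lower than dermal CCR6+ ILCs, and 2 higher and 4 lower than dermal Sca1+ ILCs. Fasn, the fatty acid synthase itself, averaged 113, 169, 91.7 and 108 CPM in epidermal, dermal CCR6+, dermal Sca1+ and subcutaneous ILCs and was called in no comparison.

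Of 18 tested genes of triglyceride and droplet handling, epidermal ILCs had 1 higher and 7 lower against subcutaneous ILCs, with 1 higher and 6 lower against dermal Sca1+ ILCs. Hilpda, a droplet protein that blocks lipolysis, averaged 117 ± 31.5 in epidermal, 489 ± 87.3 in dermal CCR6+, 1225 ± 262 in dermal Sca1+ and 2172 ± 139 CPM in subcutaneous ILCs (SD, n = 3, 2, 2 and 3). Hilpda was lower in epidermal than in dermal CCR6+ ILCs (log2 fold change -2.07 ± 0.244, edgeR adjusted p = 0.000732). Epidermal ILCs had 3 of these genes lower than dermal CCR6+ ILCs, dermal CCR6+ ILCs had 2 higher and 2 lower than subcutaneous ILCs, and dermal Sca1+ ILCs had none called against subcutaneous ILCs. Of 12 tested sterol ester genes, 1 was higher and 5 lower in epidermal than in subcutaneous ILCs. Among them Scarb1, a lipoprotein receptor, averaged 20.7 ± 2.08, 127 ± 40.9, 197 ± 10.6 and 112 ± 30.3 CPM. Of the other comparisons, both of epidermal with dermal ILCs had Abca1 and Scarb1 lower, dermal CCR6+ ILCs had Abca1 lower than subcutaneous ILCs, and dermal Sca1+ ILCs had none called against them. Neither list had a call between the dermal groups, nor had fatty acid synthesis.

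Close relatives of the 10 genes did not share their patterns in every case, and levels here are mean TPM in epidermal, dermal CCR6+, dermal Sca1+ and subcutaneous ILCs. Scd1 was at 23.9, 86.8, 165 and 16.5 TPM, while its copy Scd2 ran the other way among the upper 3 groups, at 54.5, 38, 23.9 and 18.4 TPM. Scd2 was higher in epidermal than in dermal Sca1+ and subcutaneous ILCs. Elovl4 was at 74.6, 50.7, 64.5 and 0.337 TPM, but Elovl1, a widely expressed elongase of very long chains, was at 355, 151, 118 and 116 TPM and Elovl5, an elongase of polyunsaturated fatty acids, at 183, 349, 592 and 621 TPM. Both relatives thus exceeded Elovl4 in every group.

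Dgat2 was at 147, 168, 136 and 149 TPM, whereas Dgat1, the other triglyceride synthase, was at 53.8, 470, 270 and 383 TPM. Dgat1 was lower in epidermal ILCs than in each other group, with a log2 fold change of -3.05 ± 0.333 against dermal CCR6+ ILCs (edgeR adjusted p = 0.000469). Soat2 stayed at or under 0.253 TPM, beside 56.7, 70.6, 74 and 120 TPM of Soat1. Far1, the peroxisomal reductase that many tissues use, was at 44.1, 48.5, 65.6 and 43.7 TPM, above Far2 at 2.6, 15.3, 29.4 and 1.07 TPM in every group, and was called in none. Cidec, the relative of Cidea in white fat, had 1 count over all libraries. Mgst1 was at 44.9, 207, 362 and 162 TPM and its relative Mgst3 at 45.1, 32.6, 49.6 and 37 TPM. Other relatives did share the order of groups: Scd3, at 0.37, 3.42, 9.77 and 0.00667 TPM, that of Scd1, and Elovl6, at 12.5, 19.8, 38.1 and 5.8 TPM, that of Elovl3. Among keratins, Krt5 was low in subcutaneous ILCs alone, like Krt79, at 371, 157, 187 and 3.97 TPM. Krt8 was at 0, 0.05, 0.125 and 590 TPM and Krt80 at 67.1, 7.75, 16 and 29.7 TPM.

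Both the sum and the make-up of the set varied between layers. Summed over the 10 genes, levels were 362, 402 and 496 TPM in epidermal, 681 and 685 in dermal CCR6+, 846 and 1060 in dermal Sca1+, and 502, 440 and 407 TPM in subcutaneous libraries. In subcutaneous libraries Dgat2, Soat1 and Mgst1 held nearly all of it: the share of Dgat2 was 25.9% to 43.7%, that of Soat1 23.1% to 29.7% and that of Mgst1 28.9% to 41.1%. Elovl4 was above Scd1 in all epidermal libraries (TPM ratio 2.49 to 3.27) and below it in dermal CCR6+ (0.525 to 0.646), dermal Sca1+ (0.373 to 0.424) and subcutaneous libraries (0 to 0.0554). The 2 genes did not keep 1 ratio across layers.

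**Figure D3:**
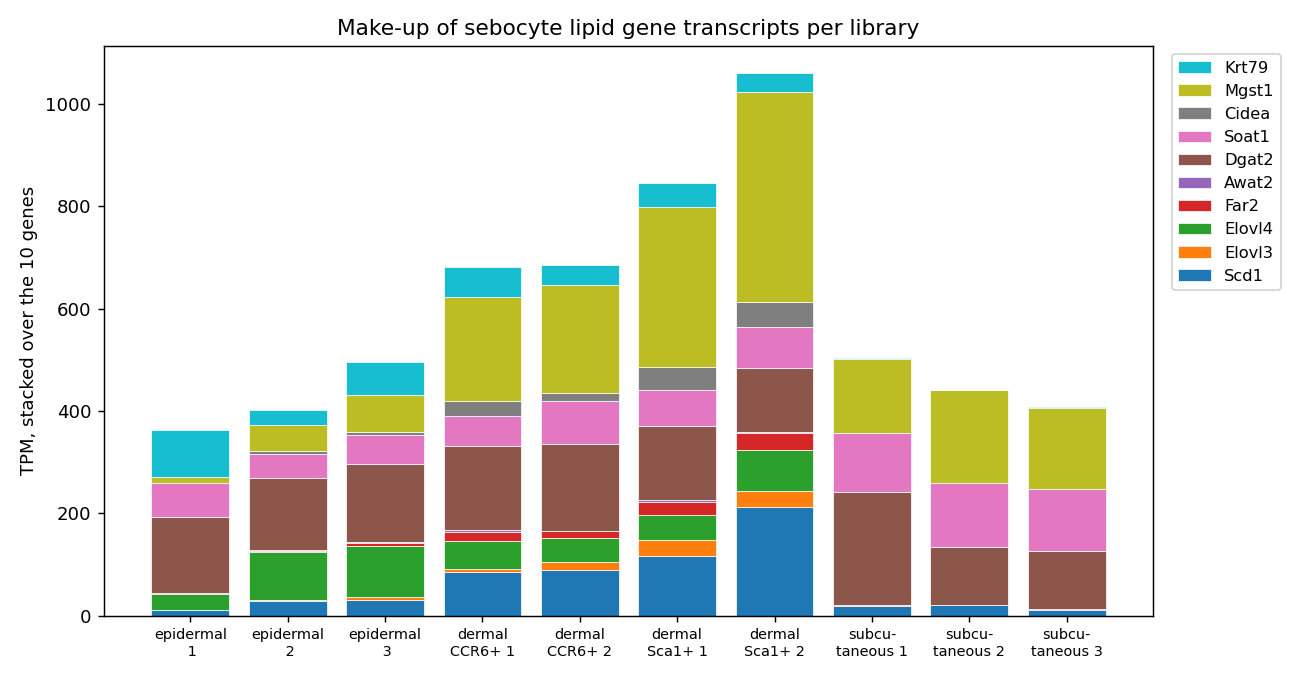
TPM of the 10 genes stacked for each library, with epidermal, dermal CCR6+, dermal Sca1+ and subcutaneous libraries from left to right. The sum is highest in the dermal Sca1+ libraries (846 and 1060 TPM), and Elovl4, Scd1 and Krt79 take hardly any of the subcutaneous bars.

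Markers of other skin cells were read beside these results. The keratinocyte list was highest in the epidermis, at 3621 to 10208 summed CPM in epidermal, 1705 to 2356 in dermal CCR6+, 2121 to 2411 in dermal Sca1+ and 110 to 248 CPM in subcutaneous libraries. All 12 keratinocyte genes were higher in epidermal than in subcutaneous ILCs, as were 9 in dermal CCR6+ and 8 in dermal Sca1+ ILCs. The shares of all genes called higher were 6.87%, 3.75% and 1.21%. Epidermal ILCs had 5 of the 12 higher than either dermal group, beside 0.987% for dermal CCR6+ and 2.75% for dermal Sca1+ ILCs. None was called between the dermal groups. The summed TPM of the 10 sebocyte genes was 0.0206 to 0.0675 of the keratinocyte sum in epidermal and 0.299 to 0.345 in dermal CCR6+ libraries. It was 0.389 to 0.506 of that sum in dermal Sca1+ and 2.41 to 4.63 in subcutaneous libraries. Few genes carried these sums: Krtdap averaged 10366 TPM in epidermal libraries, and Dgat2, Soat1 and Mgst1 held nearly all of the subcutaneous member sum. The ratio therefore cannot show whether single genes of the set followed the keratinocyte list. Elovl4 and Krt79 were near absent where basal keratins were low, with Krt14, a basal cell keratin, at 408 to 1018 TPM in epidermal and 15.6 to 18 TPM in subcutaneous libraries. The part of keratinocyte RNA in the levels of Elovl4 and Krt79 was not tested.

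Follicle and duct markers, a list of 10, summed to 387 to 486 CPM in epidermal, 172 to 272 in dermal CCR6+, 266 to 319 in dermal Sca1+ and 147 to 473 CPM in subcutaneous libraries. Krt17, a follicle keratin, Cst6, a protease inhibitor, and the beta-defensin gene Defb6 were higher in epidermal, dermal CCR6+ and dermal Sca1+ than in subcutaneous ILCs. Krt17 averaged 121 ± 33.1, 102 ± 50.3, 159 ± 22.4 and 9.27 ± 1.94 CPM (SD, n = 3, 2, 2 and 3), and its log2 fold change for dermal Sca1+ over subcutaneous ILCs was 4.1 ± 0.36 (edgeR adjusted p = 0.000634). Of the 9 genes tested, 5 were higher and 2 lower in epidermal than in subcutaneous ILCs, beside 6.87% and 13.3% of all genes. In dermal CCR6+ ILCs 3 were higher and 1 lower, beside 3.75% and 3.71%, and in dermal Sca1+ ILCs 3 were higher, beside 1.21%. Among the lower ones, Sox9 averaged 7.5 CPM in epidermal against 81.3 CPM in subcutaneous ILCs (log2 fold change -3.43 ± 0.764, edgeR adjusted p = 0.0101). Krt80 was lower in dermal CCR6+ than in subcutaneous ILCs (-1.98 ± 0.368, edgeR adjusted p = 0.00974). Against dermal CCR6+ and dermal Sca1+ ILCs, epidermal ILCs had Cst6 and Krt80 higher, beside 0.987% and 2.75% of all genes. No gene of the list was called between the dermal groups.

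Fat cells share Scd1, Cidea, Dgat2 and Mgst1 with sebocytes. The 9 adipocyte markers summed to 1.04 to 4.26 CPM in epidermal, 62 to 151 in dermal CCR6+, 181 to 193 in dermal Sca1+ and 305 to 610 CPM in subcutaneous libraries. In the dermal groups, where Scd1 and Cidea were highest, the sum was carried by Fabp4, at 164 and 313 mean TPM in dermal CCR6+ and dermal Sca1+ libraries. Fabp4 is also a gene of capillary endothelium, and the 6 endothelial markers summed to 137 to 310 CPM in dermal CCR6+ and 421 to 455 CPM in dermal Sca1+ libraries, against 3.83 to 7.86 in epidermal and 247 to 463 CPM in subcutaneous ones. The adipocyte genes Plin1, Cfd, Lep, Retn, Cidec and Pck1 had no count in either dermal group, and Adipoq had 0 in dermal CCR6+ and 24 counts in dermal Sca1+ libraries. In subcutaneous libraries these genes had 45, 391, 0, 64, 1 and 26 counts, and Adipoq had 77. Apart from Cfd they were thus low there too, so their lack of counts in the dermal groups says little. Epidermal libraries held 11 counts of Adipoq and 13 of Retn. The remaining marker, the lipoprotein lipase gene Lpl, averaged 1.75 CPM in epidermal, 18 in dermal CCR6+, 23.6 in dermal Sca1+ and 173 CPM in subcutaneous libraries. Like Scd1, Lpl was lower in epidermal than in dermal CCR6+ and dermal Sca1+ ILCs (edgeR adjusted p = 0.00616 and 0.00215), but unlike Scd1 it was also lower in both dermal groups than in subcutaneous ILCs (0.0103 and 0.0377). The part of fat cell RNA in the levels of Scd1 and Cidea was not tested.

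The 8 fibroblast markers summed to 7.15 to 29 CPM in epidermal, 1591 to 2804 in dermal CCR6+, 3316 to 4571 in dermal Sca1+ and 3467 to 5066 CPM in subcutaneous libraries. The 8 simple epithelium markers, at 1545 to 4600 CPM, were high in subcutaneous libraries, against 35 to 66.2, 30.3 to 34.7 and 49.6 to 74.1 CPM in epidermal, dermal CCR6+ and dermal Sca1+ ones. The 6 mast cell markers summed to 177 to 350, 183 to 275, 431 to 650 and 315 to 706 CPM in epidermal, dermal CCR6+, dermal Sca1+ and subcutaneous libraries. Of these sums Kit alone averaged 250, 197, 211 and 290 CPM. In epidermal libraries Kit carried nearly all of it, as Cpa3, Mcpt4, Cma1, Tpsb2 and Fcer1a had 1, 0, 0, 2 and 0 counts there. The 6 melanocyte markers summed to 2.6 to 5.85, 8.58 to 23.6, 3.87 to 164 and 2.93 to 6.23 CPM in the same order of groups. Both dermal groups had thus more fibroblast and endothelial transcripts than epidermal libraries, as they had higher Scd1 and Far2. Subcutaneous libraries had sums of both lists within or above the range of the dermal ones, with low levels of both genes. The part of any of these cells in the results was not tested.

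**Figure D4:**
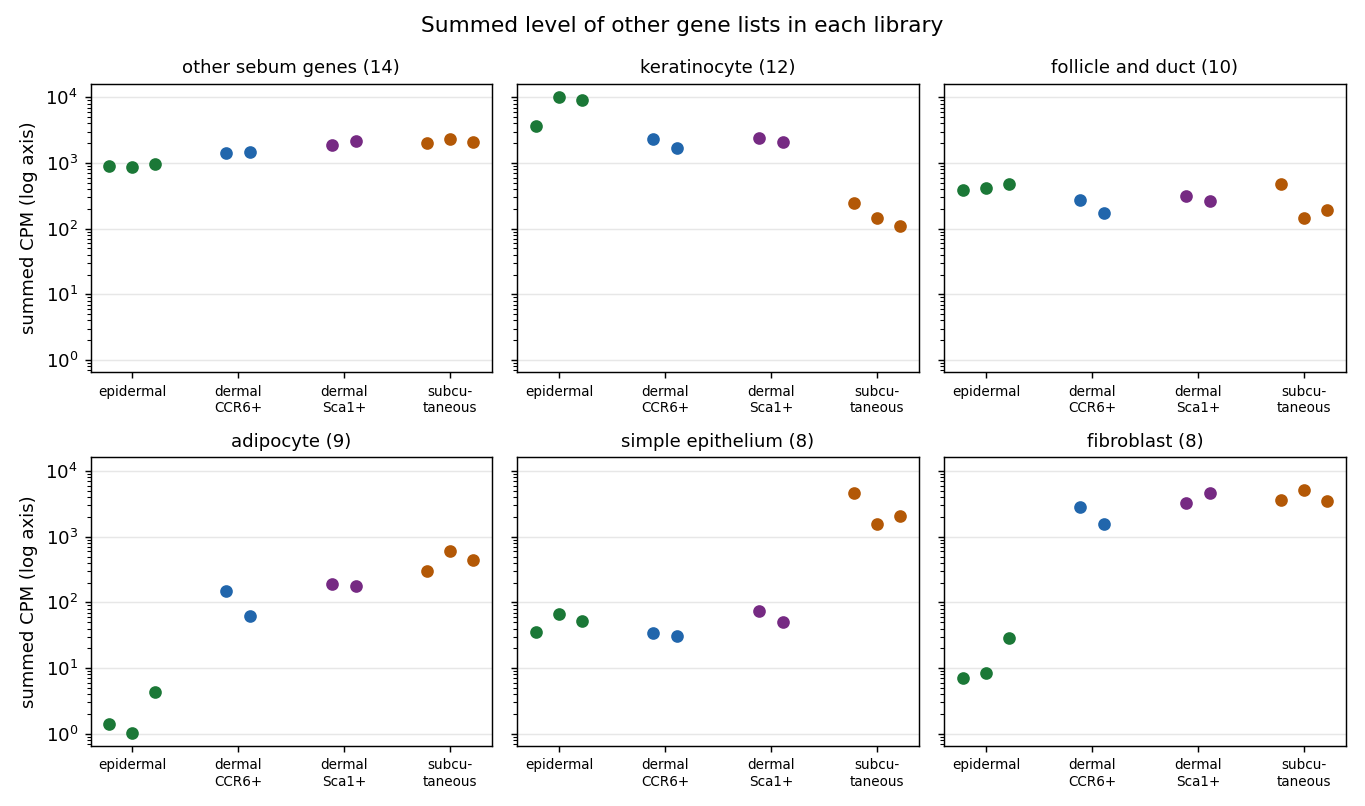
Summed CPM of 6 gene lists in each library on a log axis, with 1 point per library and the number of genes in each list in brackets. The keratinocyte list is highest in epidermal libraries (3621 to 10208 CPM), and the adipocyte and fibroblast lists are lowest there.

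The genes nearest in pattern to each called member were found by the root mean square (RMS) difference of log2 CPM, each centred on its own mean, over the 10 libraries. Cidea lay nearest to Serpina3j (0.56), Hsd3b6 (0.67) and Elovl3 (0.7), and Elovl3 to Cidea (0.7), Serpina3j (0.8) and Cyp17a1 (0.91). Serpina3j belongs to a cluster of close copies, and Hsd3b6 and Cyp17a1 encode steroid-forming enzymes. All of these had 0 CPM in the subcutaneous group except Cidea, at 0.0264 CPM. Elovl4 lay nearest to Krt15 (0.86), a keratin of basal and follicle stem cells, then to Krt79 (1.2) and Col17a1 (1.2), a collagen of the basal cell anchor. Krt79 lay nearest to Ackr4 (0.88), Calml3 (0.89) and Krt15 (0.97).

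Scd1 had as neighbours Ovol2 (0.54), an epithelial transcription factor, Ccn2 (0.6) and Cadm1 (0.6), and among the 10 genes Far2 (0.89). Far2 lay nearest to Pdzrn4 (0.74), Pla2g5 (0.78) and Aadacl3 (0.86), with group means of at most 6.57 CPM. Mgst1 lay nearest to Nbl1 (0.47), Tspan7 (0.57) and Abcg2 (0.59), the last a membrane exporter. Soat1 lay nearest to Serinc3 (0.11), H2-K1 (0.13), a class I histocompatibility gene with close copies, and Acadl (0.15), an enzyme of fatty acid oxidation. Its own spread over the libraries was small, at 0.53 RMS on the log2 scale against 4.14 for Elovl4, so a low difference is easier to reach for Soat1.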

How the data were processed

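RNA from 10 libraries of skin ILCs was isolated on columns and turned into libraries with a low-input SMART-Seq kit and Nextera XT, per the labels' protocols; this preparation does not mark strand. Trimmomatic, STAR and RSEM with the mm10 build are named in the submitters' processing notes, without versions, and the annotation is not given in the sources used here. The deposited tables hold, per the file headers, RSEM's expected counts and TPM per gene. Between 7.2% and 8.39% of the expected counts deposited were not whole. FPKM values were not used.

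Versioned gene IDs were matched to GENCODE M21 (GRCm38); 47224 of 47643 IDs had a symbol, 39106 in the same version, as had 6 of the 10 genes of the set. Coordinates and overlaps are from GENCODE, promoter bases from RefSeq.

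Expected counts were rounded. Genes were kept by filterByExpr (count minimum 10). A single model of the 4 groups was fitted to all libraries with edgeR 4.0.16 (R 4.3.3), TMM sizes and quasi-likelihood tests, two-sided, with Benjamini-Hochberg adjustment within a comparison. The SE is the absolute log2 fold change over the square root of F, and intervals take 1.96 of it. Log2 CPM for the pattern comparison had a prior count of 2. The scripts were tested on simulated data. Folds against a group without counts use a floor of 3 counts over the group; ratios with 1 to 3 counts have exact Poisson intervals. Floors and intervals cover counting error only.

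All 10 genes were named in every library; of each list and comparison at most the 4 called genes with the largest fold change were named, relatives by level, and 3 nearest genes for each called gene. The values of Awat1, Scd3, Fasn and the marker genes named without a call were chosen after they were seen. The genes of the set and the lists were chosen with earlier results of these data known. Alternatives were RLE size factors, DESeq2 1.42.0, limma 3.58.1 on log2(TPM + 1) and log2(TPM + 0.1), all genes with a count, a stricter filter (at least 5 CPM in 2 libraries), robust dispersions, only the 2 groups compared, a replicate block, and leaving out each library.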

Additional observations from a re-analysis of the deposited data

How the results depend on the processing

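The 25 calls of single genes were recomputed under the alternatives, which gave 498 values. Elovl3 and Cidea for epidermal over subcutaneous ILCs had no value with only the 2 groups in the fit, since neither passed its filter on low counts. Of these, 443 kept direction and call, 55 kept the direction but lost the call, and none reversed; 15 of the 25, Cidea for epidermal over subcutaneous ILCs among them, were called in every alternative that gave a value. With only the 2 groups compared in the fit, 3 genes of the set were called between epidermal and subcutaneous ILCs and 0 between epidermal and dermal CCR6+ ILCs, in place of 6 and 2. For epidermal over dermal CCR6+ ILCs the count was 4 without a filter and 4 by limma on log2(TPM + 1). Leaving out single libraries gave 4 to 6 called genes of the set for epidermal over subcutaneous, 0 to 2 for epidermal over dermal CCR6+, 0 for dermal CCR6+ over dermal Sca1+, 5 to 7 for dermal Sca1+ over subcutaneous, 2 to 5 for epidermal over dermal Sca1+ and 4 to 7 for dermal CCR6+ over subcutaneous ILCs. The lowest counts that moved by over 1.5 times were 0 without either dermal CCR6+ library for epidermal over dermal CCR6+, 2 without dermal Sca1+ library 2 for epidermal over dermal Sca1+ and 4 without dermal CCR6+ library 2 for dermal CCR6+ over subcutaneous ILCs; epidermal over dermal CCR6+ gave 1 without either dermal Sca1+ library, any subcutaneous library or epidermal library 2. Where a group kept 1 library, it was assumed to vary like the other groups.

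Deviations from the group mean were little correlated between libraries with the same title number (correlations of -0.038 to 0.114), and the numbers were not taken to pair them. With so few libraries per group the deviations must cancel within each group, so this check cannot exclude pairing. With a replicate block by title number, 5, 2, 0, 5, 3 and 6 genes of the set were called in that order of comparisons, and with blocks by consecutive runs of name numbers, a grouping chosen after seeing the data, 6, 2, 0, 6, 4 and 7. The title block ended the calls of Elovl3 for epidermal and dermal Sca1+ over subcutaneous ILCs (edgeR adjusted p = 0.057 and 0.0718), Cidea for epidermal over dermal Sca1+ (0.055) and Soat1 for dermal CCR6+ over subcutaneous ILCs (0.0658). With only 2 groups in the fit, Cidea for epidermal over dermal Sca1+ (0.0536), Soat1 for dermal CCR6+ over subcutaneous (0.0529) and Mgst1 for epidermal over subcutaneous ILCs (0.0664) were lost, and by limma on log2(TPM + 1) and log2(TPM + 0.1) Elovl3 for epidermal over subcutaneous ILCs (0.0725 and 0.0503). The cause was not tested.

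Over all genes, 3268, 1001, 104, 357, 1848 and 1209 were called in the same order. Leaving out single libraries gave 2280 to 3233, 732 to 1081, 35 to 155, 157 to 420, 1192 to 1865 and 435 to 1372. The counts that moved by over 1.5 times were, for dermal CCR6+ over dermal Sca1+, 35, 43 and 51 without dermal CCR6+ library 2, dermal Sca1+ library 1 and dermal Sca1+ library 2. For dermal Sca1+ over subcutaneous ILCs they were 157 and 219 without dermal Sca1+ libraries 1 and 2, and 188, 218 and 191 without subcutaneous libraries 1, 2 and 3. For epidermal over dermal Sca1+ they were 1199 and 1192 without dermal Sca1+ libraries 1 and 2, and for dermal CCR6+ over subcutaneous ILCs 435 and 769 without dermal CCR6+ library 2 and subcutaneous library 1. Without a filter the last 5 became 2028, 647, 1328, 2918 and 2292, and by DESeq2 2001, 556, 1187, 2965 and 2345. With only the 2 groups in the fit, epidermal over dermal CCR6+, dermal CCR6+ over dermal Sca1+ and dermal Sca1+ over subcutaneous ILCs gave 618, 47 and 560. The title block gave 64 for dermal CCR6+ over dermal Sca1+ and 203 for dermal Sca1+ over subcutaneous ILCs. By limma on log2(TPM + 1), dermal Sca1+ and dermal CCR6+ over subcutaneous ILCs gave 891 and 1978, and on log2(TPM + 0.1) 743 and 1899. On log2(TPM + 1) the share of called genes that were higher was 47.9% in place of 34.1% for epidermal over subcutaneous, 35.6% in place of 16% for epidermal over dermal CCR6+, 40% in place of 54.9% for dermal Sca1+ over subcutaneous and 39.1% in place of 24.1% for epidermal over dermal Sca1+ ILCs. Over all genes, epidermal over subcutaneous ILCs had a median log2 fold change of -0.022, which became 0.106 on log2(TPM + 0.1). Depth limits Awat2, with 0 to 69 counts per library, and Elovl3 and Cidea in subcutaneous libraries, with 0 and 1 counts in all.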
